A study of Mus with 3 samples.

Results

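The genes described are 10 that encode chaperones, folding enzymes, secreted factors and stress regulators of the endoplasmic reticulum (ER), taken from single-cell RNA of mouse lung by their symbols. They are Hspa5, Sdf2l1, Dnajb11, Xbp1, Ddit3, Herpud1, Pdia4, Creld2, Manf and Ern2. All 10 were found among the 27998 genes measured, each in a single row. In the RefSeq annotation of GRCm38.p6 they lie on 9 chromosomes, and Hspa5, for example, spans chr2:34772090-34776529. Over all barcodes their totals ran between 157 unique molecules (UMIs) for Ern2 and 53681 UMIs for Hspa5. Levels were read mainly in 4 secretory or matrix-producing cell classes, club-like, goblet-like, alveolar type 2-like and fibroblast-like cells.

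Proteins bound for secretion or the cell surface fold in the ER, and when unfolded protein accumulates there, sensor proteins in its membrane switch on the unfolded protein response. The IRE1 sensors splice Xbp1 mRNA so that it yields an active transcription factor, PERK slows translation and brings in ATF4 and CHOP, and ATF6 is cut to release a further transcription factor. Together they raise chaperones, disulphide isomerases, degradation factors and transport proteins. In the airway the mucus-making goblet cell is known for its large secretory load and for its own IRE1 form, IRE1β, which Ern2 encodes.

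Cells came from whole lungs of female mice aged 6-12 weeks, in 3 groups. DJ-1 KO OVA mice lacked DJ-1, a redox-sensitive protein encoded by Park7, and received ovalbumin, an allergen used in models of asthma. WT OVA mice were wild type with the same challenge, and WT PBS mice were wild type given PBS. For each group the cells of 3 mice were pooled into 1 library, the knockout allele is not given in the sources used here, and no PBS-challenged DJ-1 KO cells were analysed here. No difference between groups therefore has a replicate check, no p-value is given, and genotype or challenge cannot be told apart from anything else that differed between the pools. WT OVA takes part in both comparisons, DJ-1 KO OVA over WT OVA and WT OVA over WT PBS, so these are not independent of each other.

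In DJ-1 KO OVA, WT OVA and WT PBS there were 4666, 6406 and 4556 barcodes and 17339386, 24438516 and 26548669 UMIs, and 4438, 5930 and 3850 cells were kept. DJ-1 KO OVA and WT PBS had 372 cell barcodes in common, against 5 and 6 in the other pairs of libraries. The cell with fewer UMIs of each of these 372 pairs was left out, which was the WT PBS cell in 306 pairs and the DJ-1 KO OVA cell in 66. Kept cells that carry such a barcode were frequent among airway cells of DJ-1 KO OVA, at 24 of 46 club-like and 51 of 74 goblet-like cells, and of WT PBS, at 12 of 36 and 19 of 23. They were fewer in alveolar type 2-like cells, at 79 of 296 in DJ-1 KO OVA and 5 of 302 in WT PBS, and in fibroblast-like cells, at 39 of 274 and 4 of 339. Many airway values are therefore also given with both cells of every shared barcode left out, a setting chosen after seeing the data. These cells held most of the airway UMIs of DJ-1 KO OVA. Leaving them out took its Hspa5 count from 880 to 145 UMIs in club-like cells and from 1252 to 128 in goblet-like cells. In club-like cells of WT PBS it went from 251 to 91. Park7 stood at 20.8, 100.3 and 136 CPM (UMIs of a gene per 1000000 UMIs) over all kept cells of DJ-1 KO OVA, WT OVA and WT PBS.

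Club-like cells numbered 46, 70 and 36 in DJ-1 KO OVA, WT OVA and WT PBS, goblet-like cells 74, 57 and 23, alveolar type 2-like cells 296, 769 and 302, and fibroblast-like cells 274, 434 and 339. Their median UMIs per cell were 10564, 18880 and 10835 in club-like cells, 22217, 25757 and 46974 in goblet-like cells, 9226, 6922 and 13936 in alveolar type 2-like cells and 4264, 4481 and 6854 in fibroblast-like cells, in the same order of libraries. All 10 goblet markers were detected in the goblet-like cluster of every library, but their summed level was 61810, 43330 and 11680 CPM. Clca1, a secreted protein of mucus-making cells, stood there at 35800, 19470 and 1347 CPM, and Muc5ac, the gel-forming airway mucin, at 481 CPM in WT OVA and 26.8 CPM in WT PBS. Muc5b, the other gel-forming airway mucin, stood at 3930, 3875 and 1797 CPM, so the 23 WT PBS cells of the cluster held little Muc5ac but clear Muc5b RNA. Club markers summed to 364800, 507500 and 516500 CPM in club-like cells, and also to 258500, 354800 and 400800 CPM in goblet-like cells. Their most abundant gene, Scgb1a1, took 34.0, 48.2 and 49.0% of all UMIs of club-like cells, and these UMIs are part of the total to which every CPM value of the class is scaled.

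**Figure D1:**
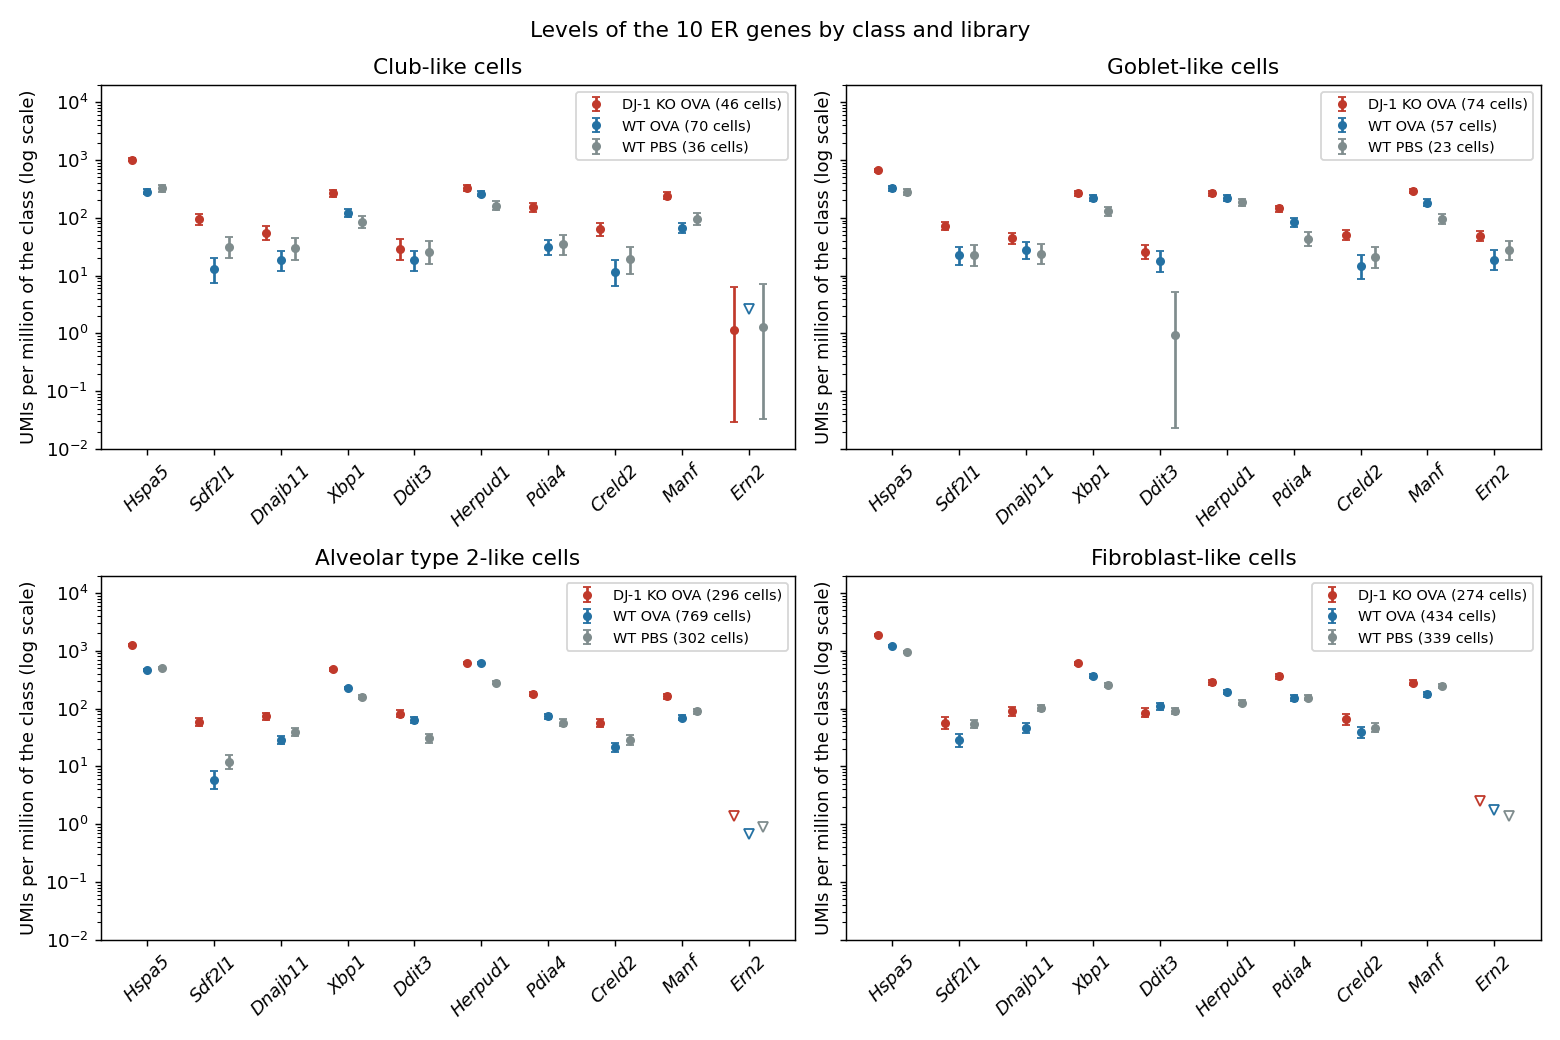
Level of each of the 10 genes in CPM (log axis) in club-like, goblet-like, alveolar type 2-like and fibroblast-like cells of DJ-1 KO OVA, WT OVA and WT PBS, with 95% Poisson intervals as bars and open triangles at the upper limit of that interval where no UMI was counted. Hspa5 and Pdia4 stand highest in DJ-1 KO OVA in all 4 panels, and Ern2 reaches more than 1 UMI in the goblet-like panel only.

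Hspa5 encodes BiP, the main ER chaperone of the HSP70 family and the classical readout of the unfolded protein response. In each of the 4 classes its level was highest in DJ-1 KO OVA, and both wild-type libraries lay close together except in fibroblast-like cells. Club-like cells held 1012 CPM (947 to 1082) in DJ-1 KO OVA, 286 CPM (258 to 315) in WT OVA and 324 CPM (285 to 366) in WT PBS, where brackets give exact 95% Poisson intervals that cover counting error only. Goblet-like cells held 669 CPM (632 to 707), 324 CPM (295 to 355) and 279 CPM (249 to 313) in the same order. In alveolar type 2-like cells the levels were 1277 CPM (1235 to 1320), 459 CPM (441 to 477) and 501 CPM (480 to 524). Fibroblast-like cells had the highest level of the 4 classes in every library, at 1908 CPM (1838 to 1980), 1194 CPM (1148 to 1242) and 959 CPM (922 to 997).

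The DJ-1 KO OVA level of Hspa5 was 3.54-fold (3.14 to 4.0) that of WT OVA in club-like cells, 2.06-fold (1.85 to 2.31) in goblet-like cells, 2.78-fold (2.64 to 2.93) in alveolar type 2-like and 1.60-fold (1.51 to 1.69) in fibroblast-like cells, with exact conditional binomial intervals for counting error only. With both cells of shared barcodes left out, the log2 ratio of Hspa5 was 2.17 in club-like cells and 1.82 in goblet-like cells, against 1.82 and 1.05 with the larger cells kept. The WT OVA level over WT PBS was 0.883-fold (0.753 to 1.04), 1.16-fold (0.999 to 1.34), 0.915-fold (0.862 to 0.970) and 1.25-fold (1.18 to 1.32) in club-like, goblet-like, alveolar type 2-like and fibroblast-like cells, all under the 1.5-fold used as a threshold. For club-like cells that ratio depended on the shared barcodes, with a log2 ratio of -1.09 with both cells left out against -0.18 with the larger kept.

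The difference in Hspa5 was seen across cells. The median club-like cell held 954 CPM of Hspa5 in DJ-1 KO OVA (quartiles 594 and 1636), 243 in WT OVA (123 and 418) and 281 in WT PBS (151 and 766). The median alveolar type 2-like cell held 1124 CPM in DJ-1 KO OVA (quartiles 647 and 1693), 402 in WT OVA (188 and 649) and 448 in WT PBS (241 and 705). In both classes the lower quartile of DJ-1 KO OVA lay near or above the upper quartile of WT OVA, while goblet-like cells, with medians of 624, 308 and 252 CPM, and fibroblast-like cells, with medians of 1850, 1068 and 792, overlapped more. The cell with the most Hspa5 gave 16.2% of the class's Hspa5 UMIs in DJ-1 KO OVA club-like cells, and 1.86% in alveolar type 2-like cells of the same library.

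**Figure D2:**
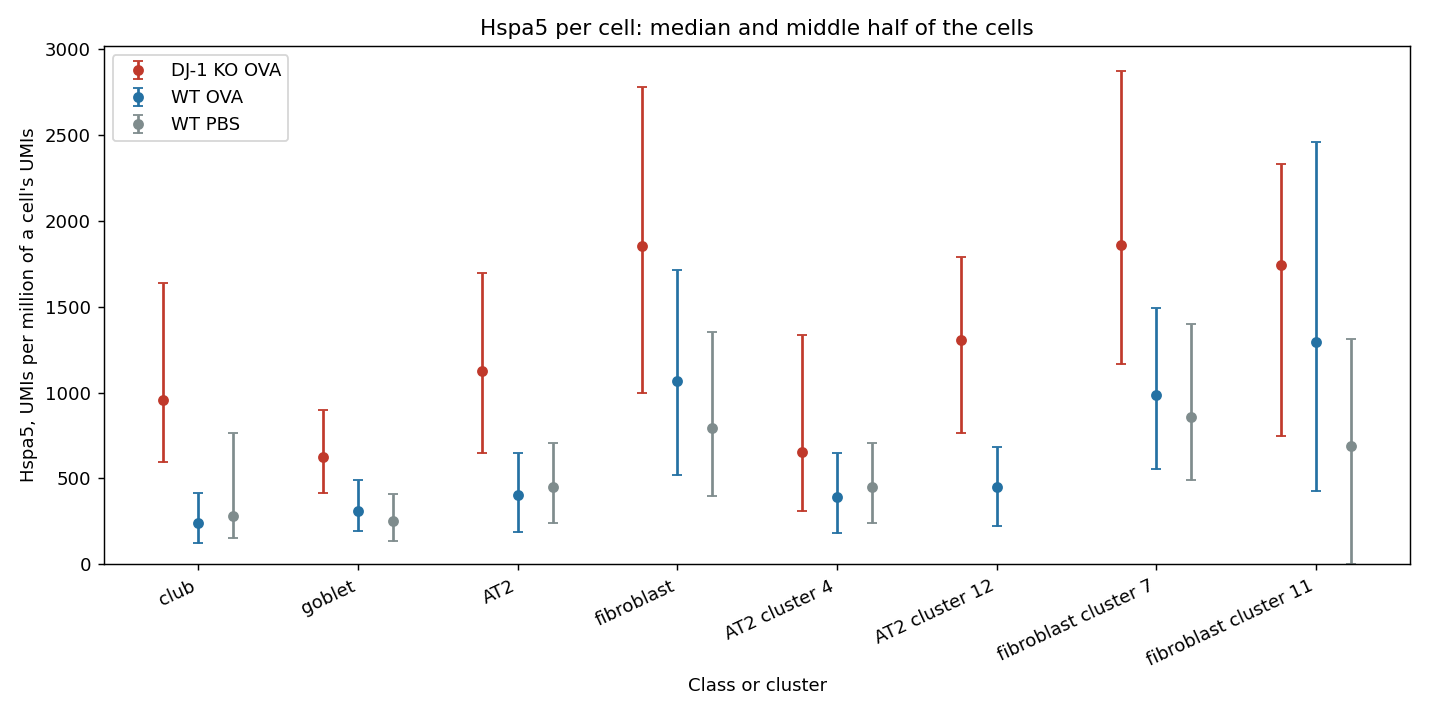
Hspa5 per cell, in CPM of the cell's own UMIs, with points at the median cell and bars between the lower and upper quartile, for DJ-1 KO OVA, WT OVA and WT PBS in the 4 classes and in the clusters of alveolar type 2-like (AT2) and fibroblast-like cells that hold them. The median of DJ-1 KO OVA is above that of WT OVA in every class and cluster drawn, at 954 against 243 CPM in club-like cells and 1850 against 1068 in fibroblast-like cells.

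Sdf2l1 and Dnajb11 encode a pair of proteins that work with BiP, SDF2L1 as a binding partner in ER chaperone complexes and DNAJB11 as a J-domain co-chaperone that hands it unfolded clients. Sdf2l1 had the largest ratio of the genes compared between DJ-1 KO OVA and WT OVA in club-like and alveolar type 2-like cells. In alveolar type 2-like cells it stood at 59.7 CPM (50.8 to 69.6) in DJ-1 KO OVA, 5.88 CPM (4.02 to 8.30) in WT OVA and 12.1 CPM (8.95 to 16) in WT PBS, from 161, 32 and 49 UMIs. That is 10.1-fold (6.91 to 15.3) of DJ-1 KO OVA over WT OVA and 0.486-fold (0.301 to 0.775) for WT OVA over WT PBS. The WT OVA level was thus the lowest of the 3, and the same order held in club-like cells, at 95.5, 12.8 and 30.9 CPM from 83, 18 and 24 UMIs.

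In goblet-like cells Sdf2l1 stood at 72.6, 22.4 and 23.1 CPM in DJ-1 KO OVA, WT OVA and WT PBS, a ratio of 3.24 (2.18 to 4.95) of DJ-1 KO OVA over WT OVA with no such gap between the wild-type libraries, at 0.969-fold (0.553 to 1.71). In fibroblast-like cells the levels were 56.7 CPM in DJ-1 KO OVA, 28.3 CPM in WT OVA and 54.3 CPM in WT PBS, so WT OVA stood below both others. Its club-like ratio of 7.44 (4.43 to 13.2) rests on few cells, since 1 cell gave 22.9% of the class's Sdf2l1 UMIs in DJ-1 KO OVA, against 33.3% in WT OVA. With both cells of shared barcodes left out, its log2 ratio was 1.47 in club-like and 1.00 in goblet-like cells, against 2.90 and 1.70 with the larger kept. That setting left only 4 and 5 Sdf2l1 UMIs in DJ-1 KO OVA, so its values are poorly measured. The goblet-like value was 0.97 with every cell weighted alike. Thinning every cell to 1000 UMIs left 6 UMIs in goblet-like cells of DJ-1 KO OVA, against 4 for WT OVA, at a log2 ratio of 0.31. Among club-like cells it left 5 and 0, at 1.31 against a count of 3 in place of the 0, so these thinned values are poorly measured.

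Dnajb11 followed the order of Sdf2l1 in alveolar type 2-like and club-like cells, at smaller size, but not in the other two classes. Alveolar type 2-like cells held 73.4, 28.9 and 39.8 CPM of Dnajb11 in DJ-1 KO OVA, WT OVA and WT PBS, or 2.54-fold (2.05 to 3.15) of DJ-1 KO OVA over WT OVA and 0.726-fold (0.579 to 0.910) for WT OVA over WT PBS. Club-like cells held 55.2, 18.5 and 29.6 CPM, with 2.98-fold (1.81 to 5.0) of DJ-1 KO OVA over WT OVA. Fibroblast-like cells held 89.4 CPM (74.8 to 106) in DJ-1 KO OVA, 46.2 CPM (37.6 to 56.4) in WT OVA and 103 CPM (91.4 to 116) in WT PBS, where the intervals of DJ-1 KO OVA and WT PBS overlap and WT OVA lies below both. Goblet-like cells held 44.9, 27.5 and 24.1 CPM, and the ratio of 1.63 (1.10 to 2.46) of DJ-1 KO OVA over WT OVA did not hold its direction without the shared barcodes, at a log2 ratio of -0.62 against 0.71.

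Pdia4 encodes a protein disulphide isomerase that makes and rearranges disulphide bonds of folding proteins. It was higher in DJ-1 KO OVA than WT OVA in each of the 4 classes. Club-like cells held 152 CPM (127 to 180) in DJ-1 KO OVA, 31.4 CPM (22.8 to 42.1) in WT OVA and 34.8 CPM (22.9 to 50.6) in WT PBS. Fibroblast-like cells held 362 CPM (332 to 394), 152 CPM (136 to 170) and 153 CPM (138 to 169). The wild-type libraries lay together there, at 0.996-fold (0.857 to 1.16), whereas DJ-1 KO OVA was 2.37-fold (2.06 to 2.74) WT OVA, its widest gap among the 10 genes in fibroblast-like cells. In goblet-like cells WT OVA stood between the other libraries, at 145, 84.6 and 43.5 CPM in DJ-1 KO OVA, WT OVA and WT PBS, or 1.72-fold (1.38 to 2.15) and 1.95-fold (1.38 to 2.79). Alveolar type 2-like cells held 178, 73.7 and 57.0 CPM, or 2.41-fold (2.11 to 2.76) and 1.29-fold (1.10 to 1.53). With both cells of shared barcodes left out, the log2 ratio of Pdia4 of DJ-1 KO OVA over WT OVA was 2.26 in club-like and 1.01 in goblet-like cells, against 2.28 and 0.78.

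Creld2 and Manf encode small proteins of the ER lumen that are also secreted, and both are known targets of the unfolded protein response. Creld2 stood at 63.3, 11.4 and 19.3 CPM in club-like cells and at 51.3, 14.5 and 21.3 CPM in goblet-like cells of DJ-1 KO OVA, WT OVA and WT PBS. DJ-1 KO OVA was 5.55-fold (3.13 to 10.4) and 3.55-fold (2.17 to 6.06) WT OVA in these classes, from 16 and 20 UMIs in WT OVA. Without the shared barcodes its log2 ratios were 1.64 and 2.12, against 2.47 and 1.83. They rest on 4 and 7 UMIs in DJ-1 KO OVA and are poorly measured. With cells thinned to 1000 UMIs the goblet-like log2 ratio was 0.14, from 4 UMIs in DJ-1 KO OVA, against 0 for WT OVA with 3 set in place of the 0. Alveolar type 2-like cells held 56.3, 21.3 and 28.6 CPM of Creld2 and fibroblast-like cells 65.5, 38.7 and 47.1 CPM, so WT OVA was the lowest of the 3 libraries in all 4 classes, within counting error of WT PBS except in alveolar type 2-like cells (0.745-fold, 0.571 to 0.972).

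Manf had the same order in 3 of the 4 classes. It stood at 242, 67.0 and 96.7 CPM in club-like cells, 163, 69.1 and 90.1 CPM in alveolar type 2-like cells and 281, 176 and 245 CPM in fibroblast-like cells of DJ-1 KO OVA, WT OVA and WT PBS. Goblet-like cells instead held 293 CPM (269 to 318), 184 CPM (162 to 209) and 94.4 CPM (77.0 to 115), with 1.59-fold (1.37 to 1.85) of DJ-1 KO OVA over WT OVA and 1.95-fold (1.55 to 2.48) for WT OVA over WT PBS. The club-like ratio of 3.61 (2.81 to 4.65) rested in part on 1 cell, which gave 24.8% of Manf UMIs in DJ-1 KO OVA, and its log2 ratio was 0.89 with both cells of shared barcodes left out against 1.85. In goblet-like cells that setting gave 0.28 against 0.67. For WT OVA over WT PBS the goblet-like log2 ratio of 0.97 was 0.11 after thinning, from 8 and 3 UMIs.

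**Figure D3:**
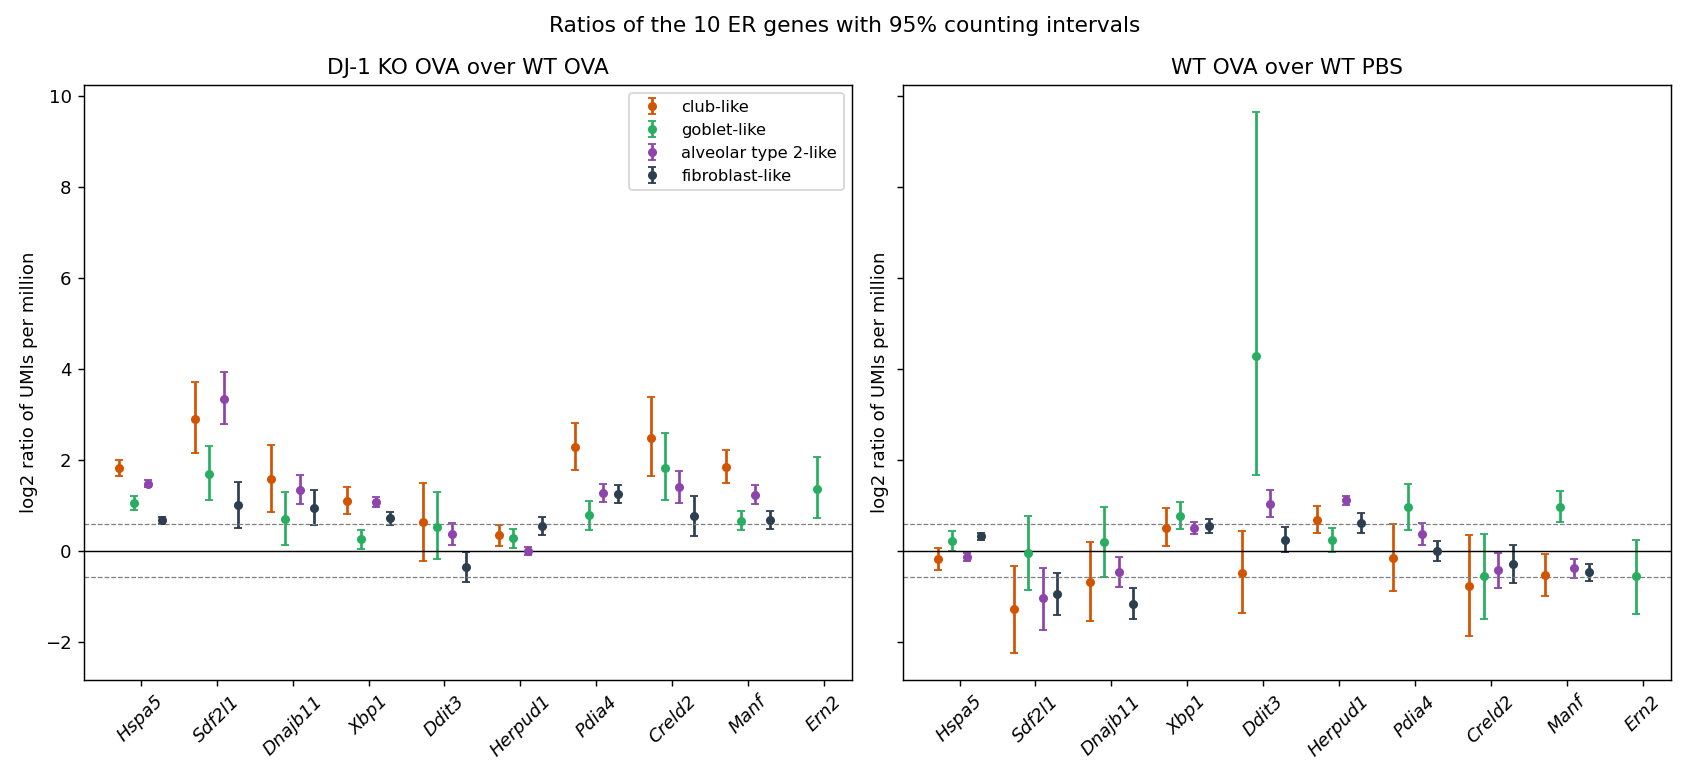
Log2 ratio of CPM for each of the 10 genes, of DJ-1 KO OVA over WT OVA on the left and WT OVA over WT PBS on the right, in the 4 classes, with 95% counting intervals as bars and dashed lines at 1.5-fold. Points on the left lie mostly above the upper dashed line, except Herpud1, Ddit3 outside club-like cells and Xbp1 in goblet-like cells. On the right they lie on both sides of 0, with a wide interval for Ddit3 in goblet-like cells, where WT PBS held 1 UMI.

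Xbp1 encodes the transcription factor whose mRNA the IRE1 sensors splice, and 3′ counts measure its total mRNA but not the spliced share. Its level descended over the 3 libraries in all 4 classes. Alveolar type 2-like cells held 479 CPM (453 to 506) in DJ-1 KO OVA, 228 CPM (215 to 241) in WT OVA and 161 CPM (149 to 174) in WT PBS. Fibroblast-like cells held 604 CPM (565 to 645), 369 CPM (343 to 395) and 253 CPM (234 to 273), and club-like cells 265, 123 and 86.4 CPM. In goblet-like cells the 264 CPM (242 to 289) of DJ-1 KO OVA and the 221 CPM (197 to 248) of WT OVA were close as summed, and WT PBS was lower at 130 CPM (109 to 153).

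The DJ-1 KO OVA level of Xbp1 was 2.15-fold (1.75 to 2.63), 1.20-fold (1.03 to 1.38), 2.10-fold (1.94 to 2.28) and 1.64-fold (1.49 to 1.81) that of WT OVA in club-like, goblet-like, alveolar type 2-like and fibroblast-like cells. WT OVA over WT PBS gave 1.43-fold (1.07 to 1.92), 1.71-fold (1.39 to 2.10), 1.41-fold (1.28 to 1.56) and 1.46-fold (1.31 to 1.62). The club-like value of the second comparison changed sign under some settings, with a log2 ratio of 0.51 as summed, 0.28 with both cells of shared barcodes kept and 0.70 with every cell thinned to 1000 UMIs (7 and 2 UMIs), but -0.67 with every cell weighted alike and -0.65 with both cells of shared barcodes left out. In goblet-like cells it was -0.31 after that thinning (16 and 8 UMIs), against 0.77. The club-like log2 ratio of DJ-1 KO OVA over WT OVA was 1.79 with both cells of shared barcodes left out, against 1.10. The goblet-like one was 1.13 in that setting (54 and 306 UMIs), against 0.26, so it depended on the shared barcodes.

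Ern2, the gene of the mucosal IRE1 form, was found almost wholly in 1 class. Of its 94, 27 and 31 UMIs among kept cells, 91, 26 and 30 lay in goblet-like cells of DJ-1 KO OVA, WT OVA and WT PBS, which is 96.8, 96.3 and 96.8%. Club-like cells held 1, 0 and 1 UMI, and alveolar type 2-like and fibroblast-like cells held 0 in every library, which allows levels of up to 1.11, 0.552 and 0.741 CPM and of up to 2.05, 1.42 and 1.15 CPM at a count of 3 UMIs. In goblet-like cells the level was 48.6 CPM (39.1 to 59.7) in DJ-1 KO OVA, 18.8 CPM (12.3 to 27.6) in WT OVA and 27.8 CPM (18.7 to 39.6) in WT PBS. DJ-1 KO OVA was 2.59-fold (1.66 to 4.17) WT OVA, and WT OVA was 0.677-fold (0.385 to 1.18) WT PBS. With both cells of shared barcodes left out, the log2 ratio of Ern2 of DJ-1 KO OVA over WT OVA was 2.25 (10 and 26 UMIs), against 1.37. Between the wild-type libraries the ratio of Ern2 was thus below 1 with an interval that spans 1, whereas in the same cells Muc5ac was 17.9-fold (12.4 to 27) and Muc5b 2.16-fold (2.05 to 2.27) in WT OVA over WT PBS.

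Depth bears on the share of goblet-like cells with an Ern2 molecule. As counted, 41 of 74, 18 of 57 and 14 of 23 cells held at least 1, or 55.4, 31.6 and 60.9%. With each cell thinned to 5000 UMIs and shallower cells left out (15, 7 and 0 cells), 15 of 59 cells held 1 in DJ-1 KO OVA (25.4%, 15 to 38.4), 4 of 50 in WT OVA (8.0%, 2.22 to 19.2) and 3 of 23 in WT PBS (13%, 2.78 to 33.6), with exact Clopper-Pearson intervals. The same thinning left 1 of 36, 0 of 58 and 0 of 25 club-like cells with an Ern2 UMI, after 10, 12 and 11 shallower cells. All 3 goblet-like intervals overlapped.

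Herpud1 encodes a membrane protein that organises the ER-associated degradation of misfolded proteins. It parted from the chaperones in alveolar type 2-like cells as a whole, but not within their cluster 12, described below. Over the class it stood at 610 CPM (581 to 640) in DJ-1 KO OVA, 614 CPM (593 to 635) in WT OVA and 283 CPM (267 to 300) in WT PBS. There DJ-1 KO OVA was 0.993-fold (0.936 to 1.05) WT OVA, and WT OVA was 2.17-fold (2.03 to 2.32) WT PBS. In fibroblast-like cells it stood at 283, 194 and 127 CPM, or 1.46-fold (1.27 to 1.68) and 1.53-fold (1.32 to 1.78). Club-like cells held 334, 264 and 164 CPM and goblet-like cells 265, 219 and 187 CPM. The club-like ratio of DJ-1 KO OVA over WT OVA was 1.26 (1.08 to 1.48), and its log2 value of 0.34 became -0.01 with Scgb1a1 taken out of the totals.

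Ddit3 encodes CHOP, the transcription factor at the end of the PERK branch that is linked to cell death under prolonged stress. It did not follow the chaperones in alveolar type 2-like cells as a whole or in fibroblast-like cells. Alveolar type 2-like cells held 82.3 CPM (71.8 to 93.8) in DJ-1 KO OVA, 63.6 CPM (57.1 to 70.7) in WT OVA and 31.1 CPM (25.9 to 37.0) in WT PBS, so that WT OVA over WT PBS, at 2.04-fold (1.66 to 2.53), was wider than DJ-1 KO OVA over WT OVA, at 1.29-fold (1.09 to 1.53). In fibroblast-like cells Ddit3 was the only 1 of the 9 genes compared with less in DJ-1 KO OVA than WT OVA, at 85.3, 109 and 91.8 CPM and a ratio of 0.783 (0.625 to 0.977). Club-like cells held 25, 26 and 20 UMIs, for 28.8, 18.5 and 25.8 CPM. The club-like log2 ratio of DJ-1 KO OVA over WT OVA, 0.63 as summed, varied with the setting. It was -0.07 with both cells of shared barcodes kept and 0.28 with Scgb1a1 taken out of the totals. With both cells of shared barcodes left out it was 1.26 (5 and 26 UMIs). With every cell weighted alike it was 1.17, and after thinning to 1000 UMIs 1.57 (6 and 3 UMIs). In goblet-like cells Ddit3 had 49 UMIs in DJ-1 KO OVA, 25 in WT OVA and 1 in WT PBS, which gives 19.5-fold for WT OVA over WT PBS with an interval of 3.20 to 802. The log2 ratio of DJ-1 KO OVA over WT OVA there was 0.53, under 1.5-fold, but 1.57 with both cells of shared barcodes left out (6 and 25 UMIs).

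Counting genes with at least 20 UMIs over both libraries, and those at least 1.5-fold apart, 8 of the 9 genes compared were higher in DJ-1 KO OVA than WT OVA in club-like cells, where 29.1% of 6918 genes were higher by that much. None of them was lower, against 7.62% of all genes. In goblet-like cells 7 of 10 were higher and 0 lower, against 16.9 and 9.9% of 7658 genes. In alveolar type 2-like cells 7 of 9 were higher and 0 lower, against 17.8 and 8.6% of 10682 genes, and in fibroblast-like cells 7 of 9 were higher and 0 lower, against 13.3 and 8.09% of 9935 genes. The median log2 ratio of the genes compared was 1.82, 0.74, 1.27 and 0.71 in these classes, and that of all genes was 0.29, 0.12, 0.11 and 0.09.

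All genes thus leaned towards DJ-1 KO OVA, most of all in club-like cells. Of all genes past 1.5-fold, 79.2, 63.1, 67.4 and 62.2% were higher in DJ-1 KO OVA in club-like, goblet-like, alveolar type 2-like and fibroblast-like cells. After dividing by the median ratio of all genes these shares were 48.3, 48.8, 54.5 and 48.6%, and the ER genes past 1.5-fold then numbered 7, 6, 7 and 7 higher and 0 lower in each class. With both cells of shared barcodes left out, the median of the ER genes was 1.64 in club-like cells (22 against 70 cells), 1.07 in goblet-like cells (23 against 57 cells), 1.23 in alveolar type 2-like cells (217 against 769 cells) and 0.85 in fibroblast-like cells (235 against 434 cells).

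Between WT OVA and WT PBS the 10 genes did not move one way. In club-like cells 1 of 9 had WT OVA ahead by 1.5-fold or more and 3 of 9 were lower, against 13.7 and 16.3% of all genes, with a median log2 ratio of -0.48. In goblet-like cells 4 of 10 were higher and 0 lower, against 15.8 and 14.2% of all genes, with a median of 0.22. The 4 were Xbp1, Pdia4, Manf and Ddit3, of which Ddit3 rests on 1 UMI in WT PBS. Alveolar type 2-like cells had 2 of 9 higher, Herpud1 and Ddit3, and 1 lower, Sdf2l1, against 8.43 and 6.96% of all genes, with a median of -0.13. Fibroblast-like cells had 1 of 9 higher, Herpud1, and 2 lower, Sdf2l1 and Dnajb11, against 7.46 and 10.0% of all genes, with a median of -0.01. Of all genes past 1.5-fold in alveolar type 2-like cells, 54.8% were higher in WT OVA, and 44.8% after dividing by the median of all genes. For club-like cells the median was -1.11 with both cells of shared barcodes left out (70 against 24 cells).

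Alveolar type 2-like and fibroblast-like cells each came from a pair of clusters, and the libraries filled those of alveolar type 2-like cells unequally. Cluster 4, led by the surfactant genes Sftpc and Sftpb, held 68, 680 and 301 cells of DJ-1 KO OVA, WT OVA and WT PBS, and cluster 12 held 228, 89 and 1. Cluster 12 was led by Slc26a4, Chia1, Retnla and Il33, with 0 alveolar type 2 markers among its 10 leading genes although all 9 were detected in it. Within cluster 4 Hspa5 stood at 791 CPM in DJ-1 KO OVA, against 453 CPM in WT OVA, or 1.74-fold (1.55 to 1.96), and within cluster 12 at 1370 and 488 CPM, or 2.81-fold (2.53 to 3.12). The 2 clusters thus had like Hspa5 levels in WT OVA and unlike levels in DJ-1 KO OVA.

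Within cluster 4, 6 of 9 genes were at least 1.5-fold higher in DJ-1 KO OVA, against 17.5% of all genes, with a median log2 ratio of 0.75, and after dividing by the median of all genes 5 were. That division took the share of all calls that were higher to 45%, against 56.2% before it, and in cluster 12 to 55.7%, against 71.7%. Within cluster 12 all 9 were higher by that much, against 19.4% of all genes, with a median of 1.10, and 7 were after that division. Sdf2l1 was 3.74-fold (1.33 to 9.20) WT OVA in cluster 4, from 7 and 20 UMIs, and 4.71-fold (2.62 to 9.32) in cluster 12, each below the 10.1-fold of the pooled class. Herpud1 was level between the libraries in cluster 4, at 682 and 659 CPM, but higher in DJ-1 KO OVA in cluster 12, at 596 CPM against 363 CPM in WT OVA, or 1.64-fold (1.45 to 1.87). Creld2 and Manf had log2 ratios of 0.59 and 0.31 in cluster 4, against 1.40 and 1.24 in the pooled class, so Manf was under 1.5-fold there. Whether the clusters differ in these ratios was not tested, since cells of a library are not replicates.

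Fibroblast-like cells were split into cluster 7, led by Sparcl1, Cxcl14 and Inmt, with 179, 291 and 202 cells of DJ-1 KO OVA, WT OVA and WT PBS, and cluster 11, with 95, 143 and 137. In cluster 7, 8 of 9 genes were at least 1.5-fold higher in DJ-1 KO OVA than WT OVA, against 13.8% of all genes, and in cluster 11, 6 of 9 were, against 20.6%. After dividing by the median of all genes 6 were higher in each, and the share of all calls that were higher was 49.0 and 50.8%, against 60.1 and 62.3% before it. Hspa5 stood at 1886 CPM against 1094 CPM in cluster 7 and at 1970 CPM against 1549 CPM in cluster 11, for DJ-1 KO OVA against WT OVA. The cluster 11 levels were thus under 1.5-fold apart. Averaged over cells, Hspa5 was at 2306 against 1150 CPM in cluster 7. In cluster 11 that mean was nearly level, at 1840 against 1803 CPM, with medians of 1744 and 1295. Pdia4 differed by nearly the same ratio in both clusters, at 2.40-fold (2.04 to 2.82) and 2.31-fold (1.72 to 3.12). Dnajb11 was lower in WT OVA than WT PBS in both, at 0.453-fold (0.345 to 0.590) and 0.420-fold (0.238 to 0.708).

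Other genes of the ER were read from lists that do not hold the 10 genes, and their counts stand against the 29.1, 16.9, 17.8 and 13.3% of all genes that were at least 1.5-fold higher in DJ-1 KO OVA than WT OVA in club-like, goblet-like, alveolar type 2-like and fibroblast-like cells, and the 7.62, 9.9, 8.6 and 8.09% that were lower. Of 22 ER folding enzymes, 14 of 20 compared were at least 1.5-fold higher in DJ-1 KO OVA than WT OVA in club-like cells and 1 was lower, 11 of 22 were higher in goblet-like and in alveolar type 2-like cells and 10 of 22 in fibroblast-like cells, with 0 lower in these 3 classes. Pdia6, a disulphide isomerase, was 4.04-fold (3.19 to 5.14) WT OVA in club-like cells, at 288 against 71.3 CPM, and 2.34-fold (2.10 to 2.62) in fibroblast-like cells, at 587 against 251 CPM. Hyou1, a large HSP70-related ER chaperone, stood at 161 CPM in DJ-1 KO OVA against 42.6 CPM in WT OVA among alveolar type 2-like cells, or 3.77-fold (3.21 to 4.44). Hsp90b1, the ER form of HSP90, stood at 626 against 303 CPM in goblet-like cells, or 2.07-fold (1.85 to 2.32). Dnajb9, a co-chaperone of BiP, went the other way in alveolar type 2-like cells, at 0.703-fold (0.623 to 0.792).

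Degradation and transport genes had smaller shares past the threshold than folding enzymes in each class, some of them near the share of all genes. Of the genes of ER-associated degradation, 5 of 15, 5 of 15, 6 of 16 and 4 of 15 were at least 1.5-fold higher in DJ-1 KO OVA in club-like, goblet-like, alveolar type 2-like and fibroblast-like cells, and 0 were lower, and the club-like share was near the 29.1% of all genes. Syvn1, the ubiquitin ligase of that pathway, was 3.83-fold (2.09 to 7.36) WT OVA in club-like cells and 1.97-fold (1.60 to 2.43) in alveolar type 2-like cells. Of the genes of translocation and transport, 13 of 23, 7 of 24, 9 of 24 and 4 of 24 were higher and 0 lower, the last near the 13.3% of all genes. Sec23b, a coat protein of vesicles that leave the ER, was among the 2 highest of that list in all 4 classes, at 3.41-fold (2.55 to 4.60) in club-like, 1.77-fold (1.36 to 2.31) in goblet-like, 2.03-fold (1.74 to 2.37) in alveolar type 2-like and 1.81-fold (1.39 to 2.37) in fibroblast-like cells.

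Of the sensors and their transcription factors 5 of 8, 3 of 9, 1 of 11 and 0 of 11 were at least 1.5-fold higher in DJ-1 KO OVA in club-like, goblet-like, alveolar type 2-like and fibroblast-like cells, with 0 lower, against 29.1, 16.9, 17.8 and 13.3% of all genes. The share was thus above that of all genes in both airway classes and below it in the other two. Creb3l1, an ER-bound transcription factor, was 2.40-fold (1.61 to 3.62) WT OVA in club-like cells and 1.70-fold (1.35 to 2.15) in goblet-like cells. Atf4, the factor translated when PERK is active, was 0.777-fold (0.710 to 0.850) WT OVA in alveolar type 2-like cells. Targets of the integrated stress response, the arm shared by PERK and related kinases, went both ways, with 0, 2, 3 and 1 higher and 2, 2, 1 and 2 lower among 9, 11, 12 and 9 genes compared, and in club-like and fibroblast-like cells the share higher was below that of all genes. Nupr1, a stress-induced chromatin factor, was at 0.289-fold (0.249 to 0.334) in club-like and 0.354-fold (0.325 to 0.385) in alveolar type 2-like cells, and Atf3, a stress-induced transcription factor, was at 0.440-fold (0.392 to 0.493) in goblet-like and 0.547-fold (0.507 to 0.590) in fibroblast-like cells.

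Genes that respond to cell handling were set beside these. Immediate early genes summed to 8955, 10630 and 9116 CPM in club-like cells, 7068, 9900 and 9833 CPM in goblet-like cells, 14370, 19100 and 11680 CPM in alveolar type 2-like cells and 31640, 37550 and 34130 CPM in fibroblast-like cells of DJ-1 KO OVA, WT OVA and WT PBS. Of the 14, 1, 0, 0 and 0 were at least 1.5-fold higher in DJ-1 KO OVA than WT OVA in these classes and 4, 7, 7 and 1 were lower, against 7.62, 9.9, 8.6 and 8.09% of all genes. WT OVA over WT PBS had 9 of 14 higher in alveolar type 2-like cells, against 8.43% of all genes. Herpud1, Ddit3, Atf3 (1.83-fold, 1.74 to 1.93) and Dnajb9 (1.92-fold, 1.71 to 2.15) were also higher in WT OVA there. In club-like, goblet-like and fibroblast-like cells 5, 0 and 0 of the 14 were higher, against 13.7, 15.8 and 7.46% of all genes. Herpud1 was also at least 1.5-fold higher in WT OVA in club-like and fibroblast-like cells, and Ddit3 in goblet-like cells (1 UMI in WT PBS). A heat shock list was also read, mostly of cytosolic proteins but with the mitochondrial Hspd1 and Hspe1 in it. Its genes had 10, 6, 5 and 2 of 12 higher in DJ-1 KO OVA than WT OVA, against 29.1, 16.9, 17.8 and 13.3% of all genes, and in fibroblast-like cells also 3 lower, Hspa1a and Hspa1b among them at 0.480-fold and 0.479-fold. In club-like cells Hspa1b was instead 5.31-fold (4.29 to 6.62) higher. The part of these genes' shifts in the ER ratios was not tested.

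Of the 4 classes, goblet-like cells were the one in which the folding, degradation, transport and sensor lists each had more genes ahead in WT OVA than in WT PBS. There 6 of 21 folding enzymes, 5 of 15 degradation genes, 9 of 24 transport genes and 4 of 9 sensors had WT OVA ahead by 1.5-fold or more and 0 were lower, against 15.8 and 14.2% of all genes, beside 9 of 10 mucous genes. In alveolar type 2-like cells the same lists had 1 of 22, 0 of 15, 0 of 24 and 0 of 11 higher, against 8.43% of all genes, and in fibroblast-like cells 1 of 22, 0 of 15, 0 of 24 and 1 of 11, against 7.46%. Club-like cells had 2 of 18, 1 of 15, 2 of 23 and 0 of 8 higher and 1, 3, 1 and 2 lower, against 13.7 and 16.3%. Integrated stress response targets had 2 of 9 higher and 1 lower in goblet-like cells. In club-like and alveolar type 2-like cells 4 of 9 and 3 of 11 of them were higher and 0 lower. Outside the 4 classes, alveolar macrophage-like cells also had some medians above that of all genes in this comparison, with log2 ratios of 0.65 for the 10 ER genes, 0.27 for folding enzymes and 0.30 for transport genes, against -0.11 for all genes and -0.24 for sensors. Within goblet-like cells Ero1lb, an oxidase that feeds disulphide formation, had 18 UMIs in WT OVA against 3 in WT PBS. Sec23b was 2.37-fold (1.52 to 3.81) higher in WT OVA in the same cells. Calr, the calcium-binding lectin chaperone calreticulin, was lower in WT OVA than WT PBS in alveolar type 2-like and fibroblast-like cells, at 0.674-fold (0.616 to 0.737) and 0.662-fold (0.607 to 0.721). Since 19 of 23 WT PBS goblet-like cells carry a barcode shared with DJ-1 KO OVA, no value could be had for this comparison without them.

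**Figure D4:**
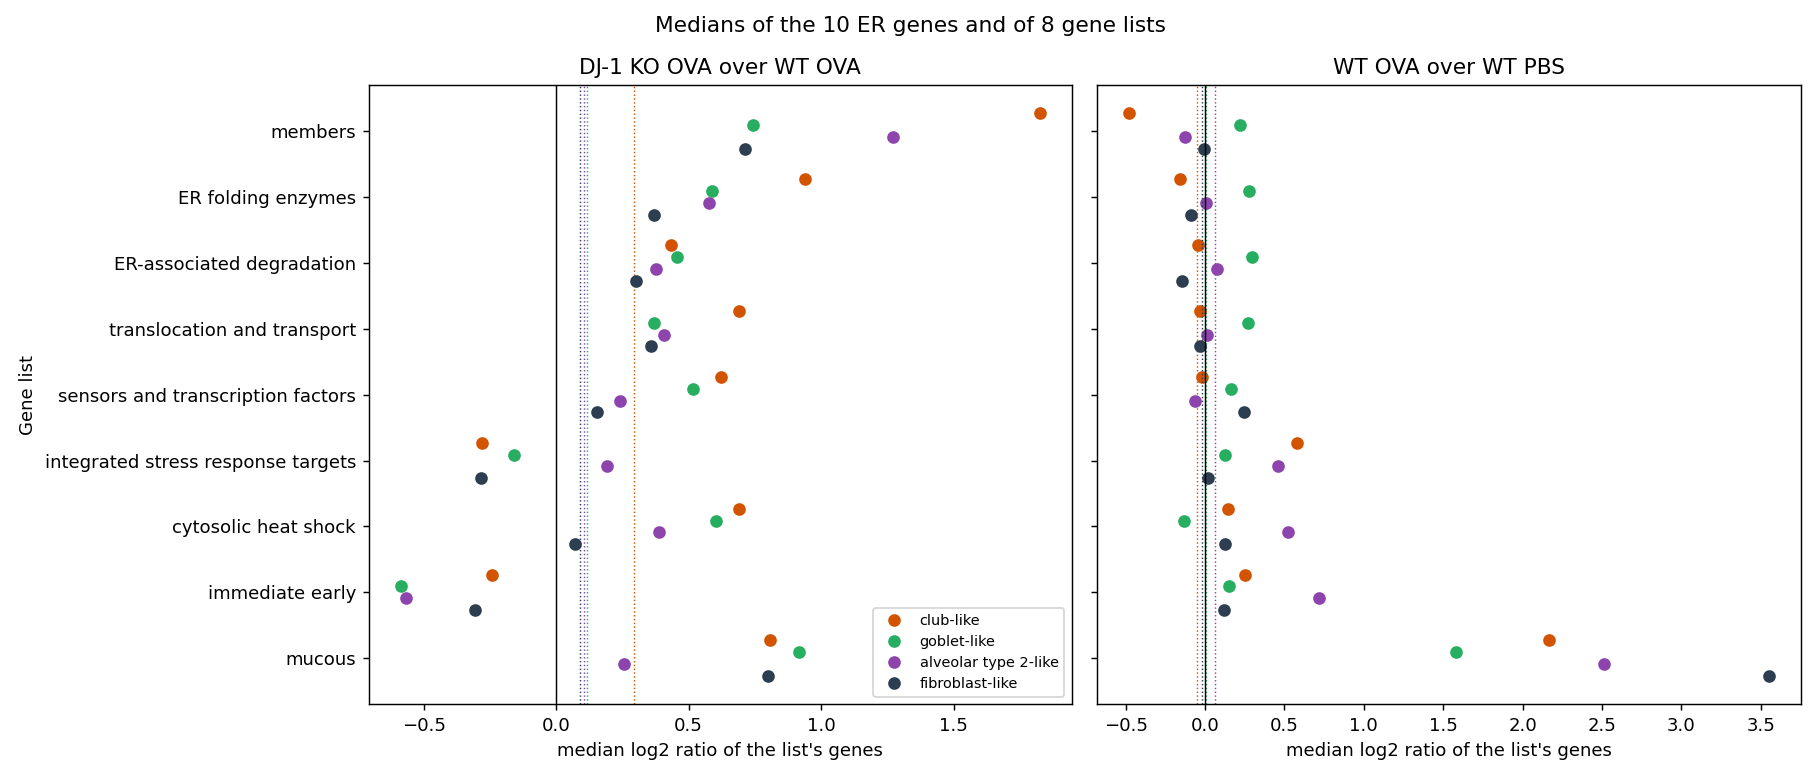
Median log2 ratio of CPM over the compared genes of the 10 ER genes (top row, "members") and of 8 gene lists, of DJ-1 KO OVA over WT OVA on the left and WT OVA over WT PBS on the right, with 1 point per class and dotted lines at the median of all genes in the class of that colour. On the left the 10 ER genes lie at 1.82 in club-like, 1.27 in alveolar type 2-like, 0.74 in goblet-like and 0.71 in fibroblast-like cells, and immediate early genes lie below 0 in all 4 classes; the mucous list has only 2 and 1 genes compared in fibroblast-like cells.

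Markers of other cell types were counted in the 4 classes, and some lists had their highest sums in DJ-1 KO OVA. The 10 alveolar macrophage markers, genes of a class with high levels of several of the ER genes, summed to 214, 67.1 and 21.2 CPM in alveolar type 2-like cells, to 193, 67.5 and 18.4 CPM in fibroblast-like cells and to 149, 49.2 and 15.7 CPM in goblet-like cells of DJ-1 KO OVA, WT OVA and WT PBS. In alveolar macrophage-like cells themselves they summed to 93110, 53370 and 19200 CPM. In alveolar type 2-like cells of DJ-1 KO OVA 3 of the 10 were at 0, Siglecf, Ear1 and Cidec, and in fibroblast-like cells 2, Siglecf and Ear1. In club-like cells they summed to 115, 1024 and 10.3 CPM, highest in WT OVA. Alveolar type 2 markers summed to 12310, 6908 and 6223 CPM in club-like cells and to 3470, 3850 and 2858 CPM in goblet-like cells, against 129100, 167400 and 215900 CPM in alveolar type 2-like cells. The 8 neutrophil markers summed to 714, 106 and 69.4 CPM in goblet-like cells, with all 8 detected in both OVA libraries, but to 14.3, 487 and 235 CPM in fibroblast-like cells, lowest in DJ-1 KO OVA. Fibroblast markers summed to 58.2, 12.5 and 9.88 CPM in alveolar type 2-like cells and T cell markers to 76.0, 19.3 and 35.8 CPM. The part of these RNAs in the ER ratios was not tested.

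Outside the 4 classes the higher level in DJ-1 KO OVA recurred in other cells of the lung, more for some genes than others. Among these classes Hspa5 was at least 1.5-fold above WT OVA in 8 of 12 and Pdia4 in 7 of 11. Dnajb11 was in 5 of 10, Creld2 in 4 of 7 and Sdf2l1 in 3 of 9, and none of these genes was lower by that much. Xbp1 was higher in 6 of 12 and lower in 1, Manf in 3 of 10 and 1, Ddit3 in 4 of 11 and 2, and Herpud1 in 2 of 12 and 2. With the 4 classes included, Hspa5 was above WT OVA in 16 of 16 classes with enough counts, at least 1.5-fold in 12, and relative to the median of all genes in 15. Pdia4 was then above WT OVA in 15 of 15 classes, also relative to that median. In mesothelial-like cells 9 of 9 of the genes were at least 1.5-fold higher, against 10.9% of all genes, with Hspa5 at 3384 CPM in DJ-1 KO OVA, against 1491 CPM in WT OVA, or 2.27-fold (2.11 to 2.44). In endothelial-like cells, of which there were 37 and 53, 7 of 7 were higher, against 24.8% of all genes, and 7 after dividing by the median of all genes, which took the share of all calls that were higher to 48.8%, against 59.6%. In alveolar macrophage-like cells 6 of 9 were higher, against 12.4% of all genes, with Hspa5 at 2929 and 1530 CPM. These cells also differed between the wild-type libraries, where Hspa5 was 2.27-fold (2.09 to 2.47) and Pdia4 2.37-fold (1.98 to 2.84) in WT OVA over WT PBS. In mesothelial-like cells the airway gene Scgb1a1 took 1.87% of UMIs in DJ-1 KO OVA, against 0.0592% in WT OVA. Its part in their ER ratios was not tested. Shared barcodes were carried by 14 of 69 mesothelial-like, 69 of 262 alveolar macrophage-like and 2 of 37 endothelial-like cells of DJ-1 KO OVA. No values without them were made for these classes.

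In lymphoid and monocyte-like classes the medians were below those of the 4 classes, a difference that was not tested. The median log2 ratio of the genes compared was 0.41 in T cell-like, 0.44 in B cell-like, 0.32 in natural killer-like, 0.19 in ILC2-like and 0.32 in monocyte-like cells, and it was -0.03 in plasma cell-like cells. Plasma cells secrete antibody and are known for high XBP1 activity, and plasma cell-like cells held 594 CPM (428 to 803) of Xbp1 in DJ-1 KO OVA, against 1032 CPM (890 to 1190) in WT OVA, or 0.576-fold (0.402 to 0.808), from 16 cells against 38. The WT OVA value was the highest of its 18 classes. This was the only class of 16 in which DJ-1 KO OVA held less Xbp1. The 7 plasma cell markers were also unlike in this class, at a sum of 3819 CPM in DJ-1 KO OVA, 20920 in WT OVA and 17230 in WT PBS. The part of that difference in the ratios of the class was not tested. Between the wild-type libraries Xbp1 was higher in WT OVA in 15 of 15 classes as summed, with the exceptions given above for club-like and goblet-like cells under other settings.

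**Figure D5:**
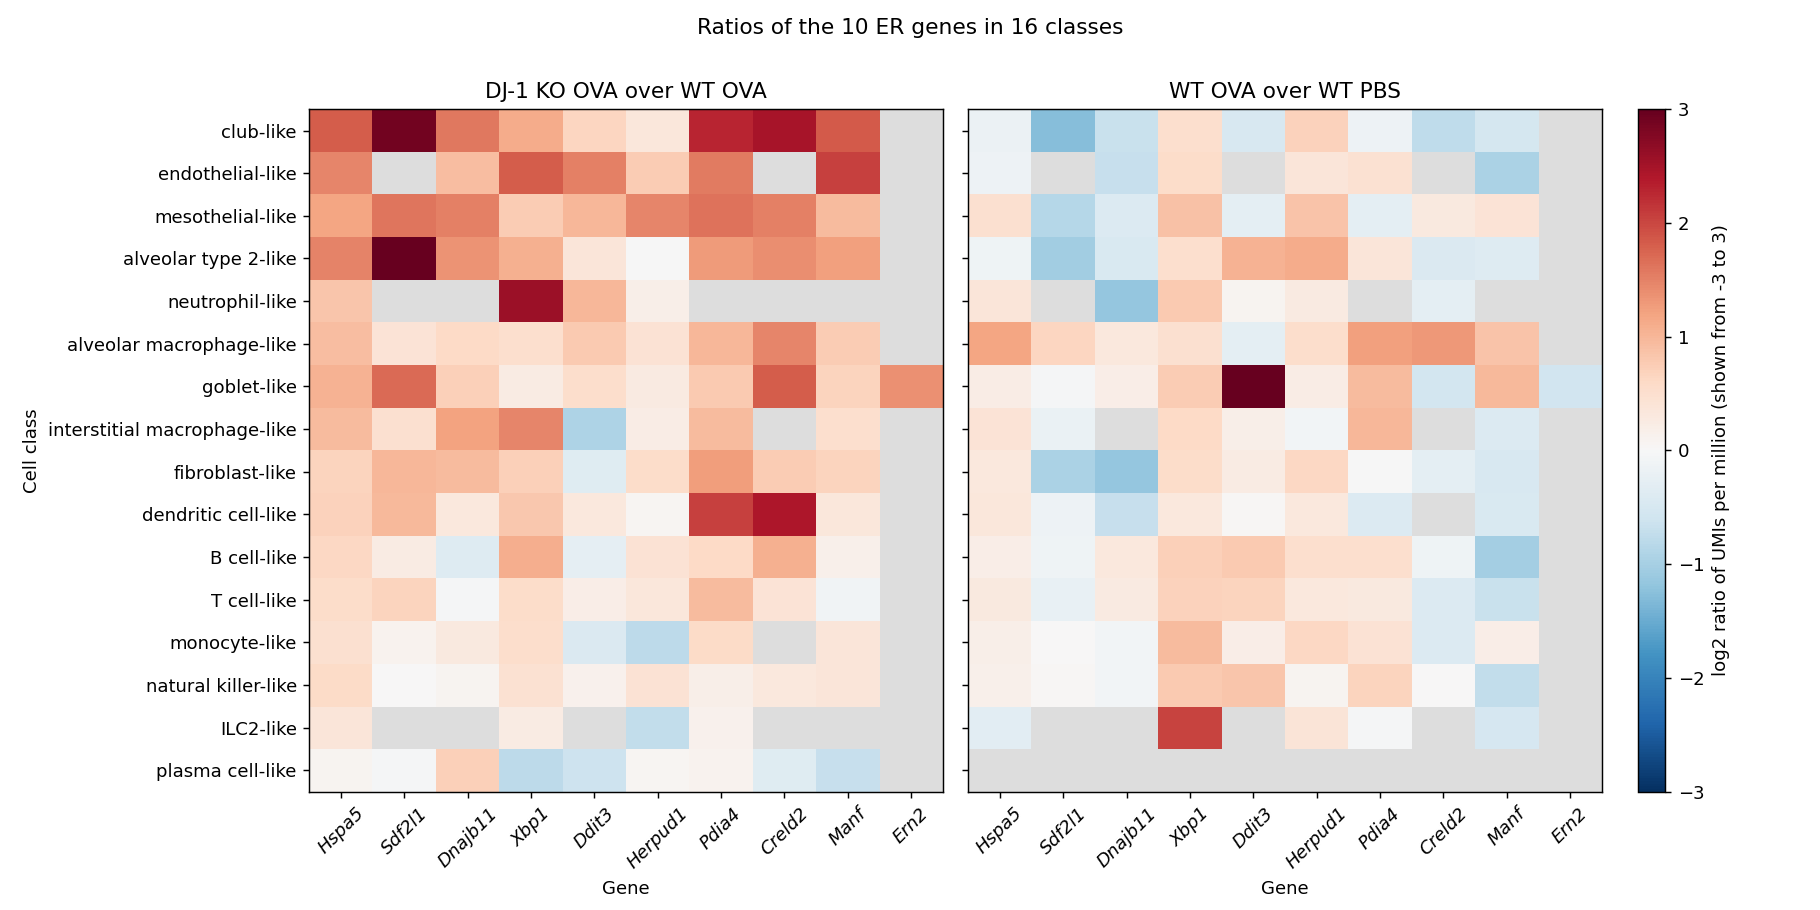
Log2 ratio of CPM of each of the 10 genes (columns) in 16 cell classes (rows, ordered by the median on the left), of DJ-1 KO OVA over WT OVA and for WT OVA over WT PBS, with colours limited to values between -3 and 3 and grey where fewer than 20 UMIs were counted or a class was too small. Red prevails on the left in the epithelial, mesothelial, endothelial and macrophage rows, while the plasma cell-like row, with Xbp1 at 0.576-fold, and the monocyte-like and several lymphoid rows are pale or blue.

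Classes differed in the genes they held most of. Herpud1 was highest in alveolar type 2-like cells among 17 classes of DJ-1 KO OVA and 18 of WT OVA, at 610 and 614 CPM. The next classes, interstitial macrophage-like at 537 CPM (420 to 676) and plasma cell-like at 502 CPM (405 to 616), had intervals that overlapped those of alveolar type 2-like cells. In WT PBS interstitial macrophage-like cells led for Herpud1 at 485 CPM (399 to 585) and alveolar type 2-like cells ranked 3 at 283 CPM. Hspa5 was led by mesothelial-like, alveolar macrophage-like and interstitial macrophage-like cells in DJ-1 KO OVA, at 3384, 2929 and 2237 CPM, with fibroblast-like cells next at 1908 CPM. In WT OVA alveolar macrophage-like and mesothelial-like cells did not differ beyond counting error, at 1530 CPM (1475 to 1586) and 1491 CPM (1404 to 1581). Manf in goblet-like cells ranked 3 of 17 classes in DJ-1 KO OVA, where its 293 CPM did not differ beyond counting error from the 281 CPM (255 to 310) of fibroblast-like cells.

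Across 45 profiles of a class in a library with at least 30 cells, the genes most like Hspa5 by Pearson correlation of log2(CPM + 10), among 11472 genes, were Surf4 (0.86), Ssr3 (0.82), Rab1a (0.82), Slc39a7 (0.78) and Timp1 (0.77). Those most like Ern2 were Tacr1 (0.99), Capn9 (0.99), Itln1 (0.99), Fer1l6 (0.97) and Muc5ac (0.97). The values for Ern2 rest on 2 goblet-like profiles, of DJ-1 KO OVA and WT OVA, set against 43 others with at most 1.60 CPM of Ern2, and WT PBS, with 23 such cells, was under the minimum of 30. Among the 10 genes themselves Hspa5 correlated at 0.77 with Xbp1 and 0.73 with Pdia4, and Pdia4 at 0.83 with Manf and 0.81 with Creld2. Ddit3 stood apart, between 0.01 and 0.38 with the other genes and at -0.28 with Ern2. The profiles share libraries, and those of a class share their cells' identity, so these values describe likeness and carry no test.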

How the data were processed

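Per the labels' protocols, whole-lung cells were run on 10x Chromium with 3′ v3 chemistry, 1 library per group. The deposited matrices hold UMI counts that are not normalized, which the authors made; the file headers give software version 3.1.0. The submitters' processing notes name Cell Ranger, STAR and the mm10 build, and the annotation release is not given in the sources used here. For WT PBS the sample title speaks of ovalbumin where the treatment label and group name give PBS, and the group follows both labels. The lowest barcode held 500 UMIs.

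The smaller cell of each of the 372 shared barcodes was left out, and a cell then needed 200 genes or more, with no more than 20% of UMIs mitochondrial. Scrublet, run per library in scanpy 1.11.5 at an expected rate of 0.06, removed 3, 162 and 58 doublets in DJ-1 KO OVA, WT OVA and WT PBS at score limits of 0.571, 0.245 and 0.314. The 3 of DJ-1 KO OVA are too few for the caller to have worked there, so doublets may remain. Cells were clustered together without integration (2000 variable genes, from which the 10 genes and 5 ER lists were taken out, 30 principal components, 15 neighbours, Leiden resolution 1, 31 clusters). A cluster was named from fixed markers where the mean log2 fold of a list's markers over the other clusters was at least 1 and at least 3 markers were detected in 10% of cells, and names carry "-like". Unnamed cells numbered 675, 679 and 329.

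Within each class and library UMIs were added up and scaled to CPM, with exact Poisson intervals, and ratios have exact conditional binomial intervals (SciPy 1.17.1). Genes with at least 20 UMIs over both libraries of a comparison were compared, a class needed at least 15 cells in each, and a count of 0 was read against 3 UMIs per library. The ratio step was tested on simulated data. The 10 genes and the 8 gene lists (124 genes) were chosen with earlier results of these data known. The text names all 10 genes, Park7, class markers, up to the 2 highest and 2 lowest genes of each list per class and comparison, and the 5 genes most like Hspa5 and Ern2. Gene positions and names were matched in the RefSeq table of GRCm38.p6 for all 10 genes. Alternatives covered filters, doublets, clustering, scaling, thinning, cell weighting and thresholds.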

Additional observations from a re-analysis of the deposited data

How the results depend on the processing

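No paired analysis was possible because each group is 1 library and the groups share only 1 replicate number. Of the values that summarise the 10 genes per class and comparison, 105 of the alternative values stayed within the spread allowed and 15 moved. The cause was not tested except where a setting's construction shows it (fewer cells or genes, a higher threshold). With DJ-1 KO OVA over WT OVA the median log2 ratio in club-like cells, 1.82 as reported, was 1.25 with club-like and goblet-like cells pooled and 1.48 with Scgb1a1 taken out of the totals. In goblet-like cells, 0.74 as reported, it was 1.28 at a limit of 10% mitochondrial UMIs, where the cluster also took in club-like cells (112 and 116 cells), and 0.39 with cells thinned to 1000 UMIs. In alveolar type 2-like cells, 1.27 as reported, it was 0.75 in cluster 4 alone, and in fibroblast-like cells, 0.71 as reported, 0.48 after thinning. For WT OVA over WT PBS the club-like median was -1.11 with both cells of shared barcodes left out (-0.48 as reported), the goblet-like median -0.60 after thinning (0.22), the alveolar type 2-like median 0.27 after thinning (-0.13) and the fibroblast-like median 0.40 in cluster 11 alone (-0.01). At 2-fold in place of 1.5-fold the genes past the threshold numbered 4 against 7 in goblet-like and 2 against 7 in fibroblast-like cells of DJ-1 KO OVA over WT OVA. For WT OVA over WT PBS they numbered 1 against 4 in club-like, 1 against 4 in goblet-like and 1 against 3 in fibroblast-like cells. For single genes 769 alternative values stayed within the counting interval, 105 moved beyond it and 3 reversed, which counts sign changes of genes at least 1.5-fold apart as reported: Ddit3 in club-like cells to -0.072 with both shared cells kept, Dnajb11 in goblet-like cells to -0.62 with both left out (2 and 38 UMIs), and Xbp1 in goblet-like cells for WT OVA over WT PBS to -0.31 after thinning. Of 365 alternative values of genes under 1.5-fold as reported, 26 also changed sign. Club-like cells at 10% mitochondrial UMIs, goblet-like WT OVA over WT PBS without shared barcodes and cluster 12 for that comparison were not run, as fewer than 15 cells were left. With 23 to 74 goblet-like and 36 to 70 club-like cells a library, genes under 20 UMIs in both libraries together could not be compared.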

Other observations

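Xbp1 also stood apart in neutrophil-like cells, at 533 CPM in DJ-1 KO OVA, 89.6 CPM in WT OVA and 52.2 CPM in WT PBS, a ratio of 5.94 (4.49 to 7.88) of DJ-1 KO OVA over WT OVA from 213 and 636 cells. It was chosen after its values were seen.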
